A study of Rattus norvegicus with 145 samples.

Results

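The genes that load and start the replicative helicase were followed through rat livers exposed to acetamide. The 10 genes were chosen by symbol from the 17337 genes listed in the deposited count tables: Mcm2, Mcm3, Mcm4, Mcm5, Mcm6, Mcm7, Cdc6, Cdt1, Cdc7 and Mcm10. The rule for choosing them uses the symbols alone, but the set was chosen with earlier results of these data known. The tables hold 29 groups of 5 rats each, with RNA from the left lobe of the liver. Acetamide was given in water by oral gavage each day, controls received the water alone, and doses are in mg/kg/day (mkd). Experiment A used male Hsd:WI rats aged 9 to 10 weeks, given 0, 30, 100, 300 or 1000 mkd for 7 days and sampled on day 8 after an overnight fast. Experiment B used male and female Crl:WI rats aged 8 to 10 weeks, given 0, 300, 500, 750, 1000 or 1500 mkd for 7 or 28 days and sampled on day 8 or day 29. The study collected the samples of experiment B as described for experiment A and gives fasting body weights for both. No genetic change, other agent or pooling of animals is named for any group. For the vehicle males of day 29, a single label field points to experiment A, but their titles and strain belong to experiment B, where they are used here.

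Replication starts at origins that were licensed beforehand. The origin recognition complex, with the loading factors Cdc6 and Cdt1, places a ring of Mcm2, Mcm3, Mcm4, Mcm5, Mcm6 and Mcm7 around the DNA as an inactive helicase. The kinase Cdc7, with its partner Dbf4, phosphorylates this ring in S phase, and Cdc45, the GINS proteins and Mcm10 turn it into a working helicase. Most hepatocytes of an adult rat are out of the cell cycle, and E2F transcription factors are known to drive many of these genes when cells prepare to replicate.

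Promoter sequence from RefSeq (build GRCr8; 250 bases before and 50 after the start of each gene) was given for 8 of the 10 genes, not for Mcm4 and Cdc6. It is shown because E2F sites are the classical shared element of this gene set. Each run is 30 bases, 5′ to 3′ on the strand of the gene, around the E2F-type match nearest the start or, for Cdc7 and Mcm10, a core match. Capitals mark E2F-type motifs (TTTCGCGC, TTTGGCGC, TTCCCGCC or GGCGGGAA) and E2F cores (the run GCGGGAA, the run GCGCGAA or the run GGCGCGA), searched on both strands. TTCCCGCC and GGCGGGAA are one motif read on opposite strands, and many cores lie within a longer motif, while others stand apart from any.
Mcm2, chr4:122918086-122918115, minus strand: acccggtTTTCGCGCGAAAacccgtggcag
Mcm3, chr9:30733735-30733764, minus strand: taaacttccgtGGCGGGAAaacttgggaag
Mcm5, chr19:13488593-13488622, plus strand: tcagaagTTTCGCGCCAAAacgtcccgcct
Mcm6, chr13:42404469-42404498, minus strand: gtctgctTTTGGCGCGAAAttagcgtgtgg
Mcm7, chr12:22163212-22163241, minus strand: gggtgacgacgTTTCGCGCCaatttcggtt
Cdt1, chr19:67529245-67529274, plus strand: ccgcgaaaattGCGCGAAAtccGCGGGAAg
Cdc7, chr14:2969626-2969655, minus strand: attcaaagcagcGCGGGAAgaaTCGCGCCt
Mcm10, chr17:78175156-78175185, plus strand: tctattttagttGCGCGAAgctgaggcttc

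An E2F-type motif was found in 6 of the 8 promoters (Mcm2, Mcm3, Mcm5, Mcm6, Mcm7 and Cdt1) and in 2.68% of all 33469 promoters. An E2F core was found in 8 of 8, against 7.9% of all promoters. In Mcm2, Mcm5 and Mcm6 2 of the longer motifs overlapped on opposite strands. The CCAAT box (CCAAT) was found in 5 of 8 and in 37.5% of all promoters, and the CHR element (TTTGAA) in 2 of 8 (Mcm2 and Cdc7) and in 18.3%. A match is a string of letters and not a measured binding site.

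Values are CPM, the count of a gene divided by the scaled library size within each table, and fold changes are log2 differences from the vehicle control with standard errors (SE) from edgeR. The study's criteria were used to call a gene, namely a fold change of 1.5 or more with a p of 0.05 or less after Benjamini-Hochberg adjustment over all genes tested. The study applied its thresholds to DESeq2 results, while calls here are from edgeR unless DESeq2 is named. All 10 genes passed the filter on low counts in each of the 5 tables, which tested 11323, 11304, 11279, 11497 and 11451 genes. Counts per rat over all genes ran from 15449716 to 39986531. Cdc6 and Cdc7 rested on few reads, with 3 to 25 counts of Cdc6 and 0 to 11 of Cdc7 in each control rat. The 8 hepatocyte markers (albumin among them) were tested in each table and summed to 162165 CPM or more in each control rat. In whole liver, more cells of one type and more RNA per cell cannot be told apart.

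At 1000 mkd in experiment A, 9 of the 10 genes were higher than in the vehicle control, where 14% of all tested genes were called higher. The exception was Mcm10. None of the 10 was called lower in any table at any dose. The median log2 fold change of the 10 genes was 2.25, and that of all genes tested was 0.00093.

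Within the helicase ring, Mcm5 stood at 1.54, 1.67, 0.983, 1.75 and 3.12 CPM in the control rats (replicates 1 to 5) and at 9.27, 15.0, 7.13, 14.6 and 6.62 CPM at 1000 mkd (replicates 2 to 6). The groups did not overlap, and the log2 fold change was 2.53 (SE 0.49, adjusted p = 0.000778). Mcm3 went from 2.03, 1.45, 1.59, 2.29 and 3.48 CPM in the controls to 11.0, 16.0, 6.56, 17.5 and 7.90 CPM. Its log2 fold change was 2.44 (SE 0.45, adjusted p = 0.000568), again with no overlap. A pseudogene, Cct7-ps4, overlaps Mcm3 in the RefSeq annotation, and whether the counting used strand is not given in the sources used here. Mcm6 had 2.28, 2.54, 1.93, 3.91 and 4.40 CPM in the controls and 15.7, 17.6, 11.2, 18.7 and 8.07 CPM in the treated rats, a log2 difference of 2.24 (SE 0.42, adjusted p = 0.000676).

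The other ring subunits had smaller fold changes in the same rats. Mcm2 had 5.96, 7.15, 5.10, 5.75 and 7.74 CPM in the controls and 16.2, 18.7, 9.88, 17.4 and 11.0 CPM at 1000 mkd, with no overlap (log2 fold change 1.21, SE 0.23, adjusted p = 0.000815). Mcm4 overlapped between the groups, with 4.88 to 8.13 CPM in the controls and 7.10 to 11.9 CPM in the treated rats (log2 fold change 0.68, SE 0.24, adjusted p = 0.0376). Mcm7 had 14.9 to 21.8 CPM against 18.5 to 33.6 CPM (log2 fold change 0.60, SE 0.22, adjusted p = 0.042). The calls of Mcm4 and Mcm7 were each lost when control replicate 1, 2, 3 or 5 or treated replicate 2, 3 or 5 was left out, which left 7 of the 10 genes called. The call of Mcm7 was also lost with DESeq2, which called 8 of the 10 genes at this dose, and with DESeq2 size factors in edgeR. Differences between subunits of the ring were not tested.

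Both loading factors were higher without overlap. Cdt1 rose from 1.30, 0.871, 0.907, 1.2 and 0.853 CPM to 6.55, 8.49, 2.01, 6.33 and 3.84 CPM (log2 fold change 2.40, SE 0.36, adjusted p = 0.000141). Cdc6 rose from 0.140, 0.363, 0.302, 0.211 and 0.623 CPM to 1.84, 2.69, 0.798, 1.41 and 1.17 CPM (log2 fold change 2.26, SE 0.44, adjusted p = 0.000764). The kinase gene Cdc7 had 0.316, 0.145, 0, 0.241 and 0.328 CPM in the controls and 0.567, 1.74, 0.444, 1.74 and 0.538 CPM at 1000 mkd. Its log2 fold change was 2.25 (SE 0.55, adjusted p = 0.00401), and the control with no read makes the size of this fold imprecise.

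Mcm10, which acts when the loaded helicase is switched on, did not pass. It had 15.7, 19.5, 35.1, 19.8 and 34.6 CPM in the controls and 30.0, 23.6, 43.8, 28.2 and 51.7 CPM at 1000 mkd (log2 fold change 0.51, SE 0.32, adjusted p = 0.241). The groups overlapped, and 2 of 5 treated rats were above all controls. At library totals without scaling factors, an alternative chosen after seeing the data, its log2 fold change was 1.04 (adjusted p = 0.0111). Every treated rat was above every control for 7 of the 10 genes in experiment A, where 9.01% of tested genes did so.

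**Figure D1:**
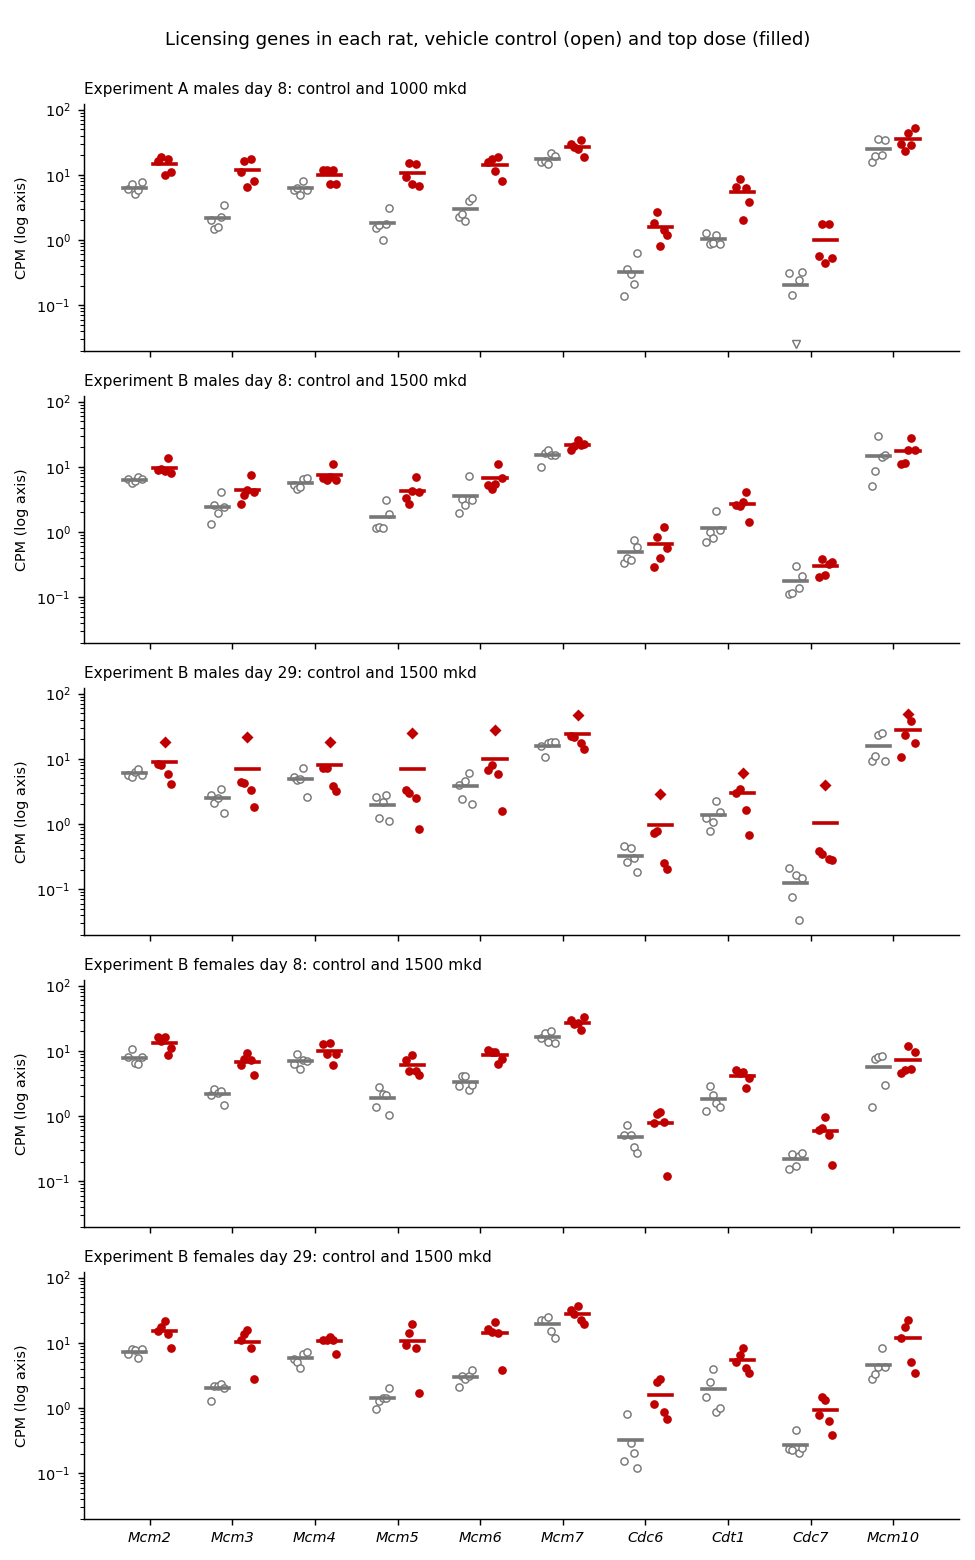
CPM on a log axis for each of the 10 genes, with 1 point per rat, in the vehicle control (open) and at the top dose (filled) of the 5 tables; short lines are group means. The diamond is replicate 3 of males day 29 at 1500 mkd, the highest of its group for all 10 genes, and the open triangle at the floor of the first panel is the control rat with 0 counts of Cdc7.

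Lower doses of experiment A gave no call for any of the 10 genes by edgeR or by DESeq2. The share of tested genes called higher was 0% at 30, 100 and 300 mkd. Such shares come from edgeR throughout, and none was computed for DESeq2. At 300 mkd all 10 log2 fold changes were above 0, from 0.09 to 1.16. Of the 10, 6 had an unadjusted p under 0.05, against 218 of all 11323 tested genes, but no adjusted p was below 0.999925. At 30 mkd 3 of the 10 were above 0, at 100 mkd 6 were, and none had an unadjusted p under 0.05. At those doses 324 and 232 of all tested genes did. A straight line on dose rose for 9 of the 10 genes at an adjusted p of at most 0.05, where 23.5% of tested genes rose. Mcm10 did not pass (slope 0.50 per 1000 mkd on the log2 scale, SE 0.32, adjusted p = 0.207). Without the 1000 mkd group none of the slopes passed, and Cdc7 was then too low to be tested.

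In females of experiment B on day 29, 9 of the 10 genes were higher at 1500 mkd, against 9.55% of all tested genes. The median log2 fold change was 1.64 for the 10 genes and -0.0018 for all genes. Mcm5 had 0.972, 1.28, 1.42, 1.43 and 2.00 CPM in the controls and 9.16, 14.4, 19.7, 8.32 and 1.70 CPM in the treated rats (log2 fold change 2.91, SE 0.50, adjusted p = 0.000338). Replicate 5 was the only treated rat within the control range. Mcm3 had 1.28 to 2.32 CPM in the controls and 10.9, 13.6, 15.8, 8.46 and 2.81 CPM at 1500 mkd, without overlap (log2 fold change 2.37, SE 0.40, adjusted p = 0.000285).

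Cdc6 was called at a log2 fold change of 2.29 (SE 0.50, adjusted p = 0.00252) and Mcm6 at 2.23 (SE 0.41, adjusted p = 0.000648). Cdc7 followed at 1.78 (SE 0.34, adjusted p = 0.000829) and Cdt1 at 1.49 (SE 0.52, adjusted p = 0.0419). Mcm2 rose by 1.08 (SE 0.28, adjusted p = 0.00813) on the log2 scale and Mcm4 by 0.86 (SE 0.24, adjusted p = 0.0115). Mcm7 had 22.4, 22.1, 25.0, 15.2 and 12.0 CPM in the controls against 32.5, 27.6, 36.6, 22.7 and 19.4 CPM and did not pass (log2 fold change 0.52, SE 0.22, adjusted p = 0.102). Mcm10 went from 2.80, 3.31, 4.27, 8.36 and 4.24 CPM to 11.9, 17.4, 22.0, 5.05 and 3.4 CPM (log2 fold change 1.39, SE 0.39, adjusted p = 0.0132), so that 2 treated rats lay within the control range.

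The treated females did not respond alike. Replicate 5 was the lowest of its group for all 10 genes, and replicate 3 was the highest for 9 of them. Every treated rat was above every control for 2 genes, Mcm2 and Mcm3, where 3.51% of tested genes did so. Without treated replicate 5, all 10 genes were called. The call of Cdt1 was lost without control replicate 1, 4 or 5 or treated replicate 1, 2 or 3, and that of Mcm10 without treated replicate 2 or 3. Removing 1 treated rat at a time left at least 7 genes called.

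Fewer genes were called at the lower doses in these females. At 1000 mkd Mcm3, Mcm5 and Mcm6 were higher, 3 of the 10 genes against 1.23% of tested genes. Mcm5 stood at 4.21, 4.98, 7.61, 5.66 and 5.34 CPM in those rats, above each control (log2 fold change 1.97, SE 0.50, adjusted p = 0.035). The 3 calls were all lost without control replicate 1, 4 or 5, or treated replicate 2, 3 or 4. No gene of the 10 was called at 300, 500 or 750 mkd by edgeR, where 0%, 0.0349% and 0.166% of tested genes were called higher. An unadjusted p under 0.05 was found for 2, 0 and 7 of the 10, and for 400, 1301 and 1787 of all 11451. DESeq2 called 0, 0 and 3 of the 10. Over all doses, 10 of 10 genes rose with dose, against 15.4% of tested genes, and 5 did so without the 1500 mkd group.

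After 7 days of treatment, the females of experiment B had calls at 1000 mkd but not at 1500 mkd. At 1000 mkd Mcm3, Mcm5 and Mcm6 were higher, where 1.03% of tested genes were. The rats fell apart in level, and Mcm6 had 16.6, 3.48, 6.32, 22.3 and 19.3 CPM in replicates 1 to 5 against 2.50 to 4.17 CPM in the controls (log2 fold change 2.04, SE 0.50, adjusted p = 0.0332). Replicates 1, 4 and 5 were above replicates 2 and 3 for every ring subunit. Mcm3 was called at a log2 fold change of 2.07 (SE 0.45, adjusted p = 0.0195) and Mcm5 at 2.20 (SE 0.55, adjusted p = 0.0369). Leaving out any 1 control, or treated replicate 1, 4 or 5, left 0 or 1 of these calls. At 1500 mkd no gene of the 10 was called, against 0.522% of tested genes, while DESeq2 called 2. There, 7 of the 10 had an unadjusted p under 0.05, against 1688 of all 11497 tested genes.

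For Mcm3 the 1500 mkd females of day 8 had 6.11, 7.43, 9.13, 7.28 and 4.33 CPM, and each was above every control (1.48 to 2.57 CPM). The log2 fold change was 1.66 (SE 0.45) and the adjusted p 0.0662. Mcm5, Mcm6 and Mcm7 were likewise without overlap, so 4 of the 10 genes separated the groups, against 1.65% of tested genes. At 300, 500 and 750 mkd none was called by edgeR. There, 0.0087% of tested genes were called higher at each dose, and DESeq2 called 0, 0 and 2 of the 10. Those with an unadjusted p under 0.05 were 1, 1 and 7 of the 10, and 295, 741 and 1609 of all 11497. A line on dose rose for Mcm3, Mcm7 and Cdc7, 3 of the 10, where 3.76% of tested genes rose, and for 5 on the scale of log10(dose + 100). With replicate 1 or 2 left out of every group 2 of these slopes passed, with replicate 4 or 5 left out 1 did, and with replicate 3 left out none did. The slope of Cdc7 was lost in all 5 cases.

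No gene of the 10 was called in males of experiment B on day 8, at any dose, by edgeR. At 1500 mkd 0.142% of tested genes were called higher, and at 300, 500, 750 and 1000 mkd 0% were. All 10 log2 fold changes were above 0 at 1500 mkd, from 0.24 to 1.33. Of these, 6 had an unadjusted p under 0.05, against 1429 of all 11304 tested genes. At 300, 500, 750 and 1000 mkd 0, 4, 6 and 7 of the 10 did, against 159, 375, 865 and 531 of all. DESeq2 called Mcm2 and Mcm5 at 1500 mkd and none at the lower doses. Mcm5 had 1.15, 1.2, 1.14, 3.13 and 1.92 CPM in the vehicle rats and 3.29, 2.66, 4.31, 6.86 and 4.05 CPM at 1500 mkd (log2 fold change 1.33, SE 0.37, adjusted p = 0.0903). Mcm2 was the gene without overlap, with 5.65 to 6.91 CPM against 8.84, 9.20, 8.63, 13.4 and 8.09 CPM (log2 fold change 0.62, SE 0.18, adjusted p = 0.102), and 1.45% of tested genes had none.

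Slopes on dose in these males passed for Mcm2, Mcm5, Mcm7 and Cdt1, 4 of the 10 genes, against 1.98% of tested genes. The steepest of the 4 was Mcm5, at 0.96 per 1000 mkd on the log2 scale (SE 0.25, adjusted p = 0.0302). Leaving out replicate 1, 2, 3 or 4 of every group left none of the slopes past the threshold, and leaving out replicate 5 left 3.

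In males on day 29, 1 rat set the level of the 1500 mkd group. This rat, replicate 3 (Rv2655), was an outlier for Ki67 labeling in the study, which left it out of its benchmark dose modelling. Mcm5 stood at 2.57, 1.24, 2.18, 2.83 and 1.11 CPM in the controls and at 3.37, 3.01, 24.9, 2.49 and 0.825 CPM in treated replicates 1 to 5. Replicate 3 was the highest of its group for all 10 genes, and replicate 5 was the lowest for 9. The same rat had 243 CPM of the proliferation marker Mki67, while the others had 14.1, 10.1, 12.9 and 3.07 CPM. For Mcm3 the treated values were 4.46, 4.22, 21.5, 3.37 and 1.80 CPM against 1.49 to 3.50 CPM in the controls, and for Cdc7 they were 0.388, 0.344, 3.91, 0.293 and 0.284 CPM against 0.0336 to 0.209 CPM.

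With all 5 treated rats, Mcm3 (log2 fold change 1.52, SE 0.46, adjusted p = 0.0429) and Cdc7 (log2 fold change 3.04, SE 0.65, adjusted p = 0.00999) were called, 2 of the 10, where 3.16% of tested genes were. Cdc7 was the gene of the 10 whose treated rats were all above the controls, against 2.86% of tested genes. Without replicate 3 the value of Mcm3 was 0.41 (adjusted p = 0.451), that of Mcm5 fell from 1.80 to 0.21 (adjusted p = 0.788), and Cdc7 alone remained called at 1.27 (adjusted p = 0.0463). In that fit 1.12% of all tested genes were called higher. The call of Mcm3 was also lost without treated replicate 1 or any 1 control. Removing replicate 4 or 5 instead gave 4 or 5 called genes.

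Slopes on dose moved with the same rat. With all rats, 9 of the 10 genes rose with dose in males day 29 (Mcm4 did not pass), against 13.9% of tested genes. Without replicate 3 of the 1500 mkd group only Cdc7 did (slope 0.75 per 1000 mkd on the log2 scale, adjusted p = 0.0436). With the whole 1500 mkd group left out, that rat included, the slopes of Mcm7 and Mcm10 no longer passed. Those of Mcm2, Mcm3, Mcm5, Mcm6, Cdc6, Cdt1 and Cdc7 still did. At 300, 500, 750 and 1000 mkd none of the 10 was called by edgeR, where 0%, 0%, 0.248% and 0.949% of tested genes were called higher. Of the 10 genes, 0, 0, 5 and 6 had an unadjusted p under 0.05 at those doses, against 638, 1542, 2582 and 2959 of all 11279. DESeq2 called 0, 0, 0 and 1 of the 10. When the rat was left out of the fit, Mcm3 (1.10, adjusted p = 0.0273), Cdt1 (1.4, adjusted p = 0.0404) and Cdc7 (1.80, adjusted p = 0.01) were called at 1000 mkd, a dose at which that rat had no part. No share of all genes was computed for the slopes or the 1000 mkd calls without the rat, or for the slopes without the 1500 mkd group.

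**Figure D2:**
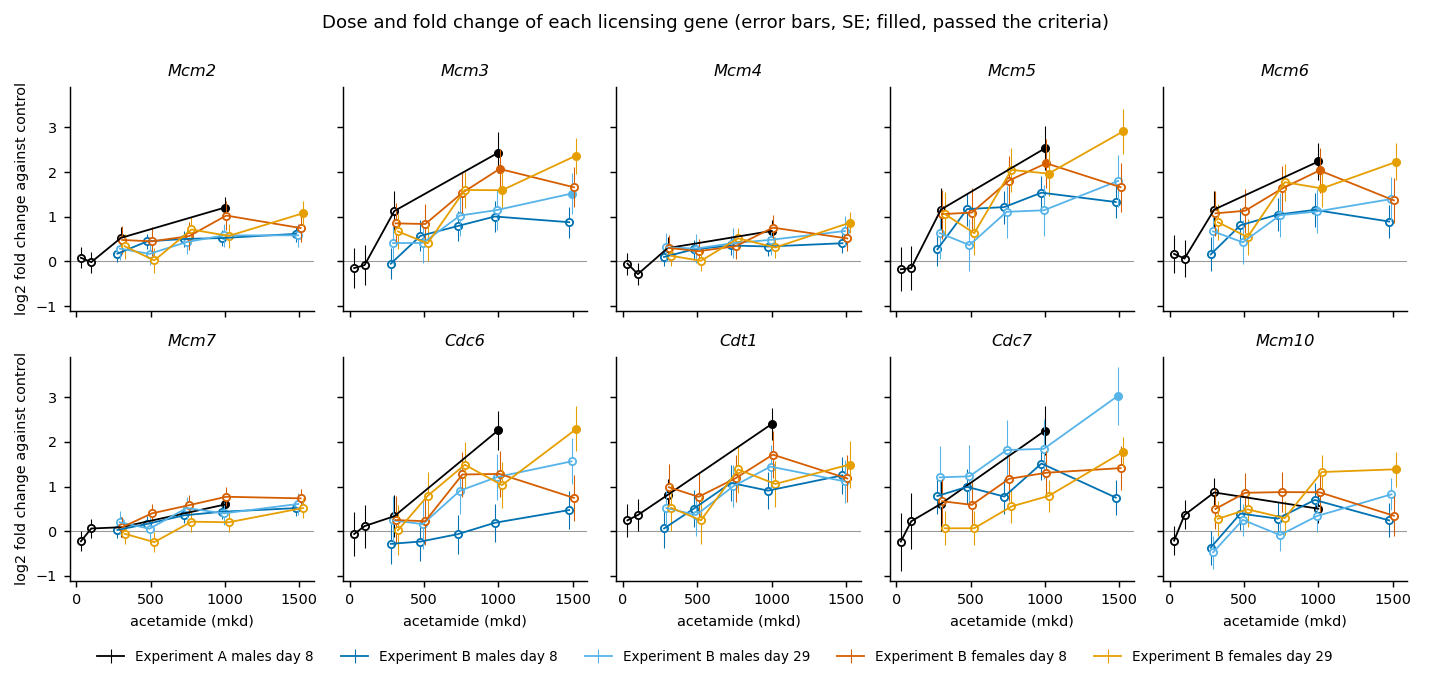
Log2 fold change against the vehicle control of the same table (vertical axis) by dose in mkd (horizontal axis), 1 panel per gene and 1 line per table, with SE as bars; filled points passed the fold and adjusted p criteria. Mcm3, Mcm5 and Mcm6 climbed above 2 in experiment A, in females day 29 and, at 1000 mkd, in females day 8. Cdc6 did so in experiment A and females day 29, Cdt1 in experiment A, and Cdc7 in experiment A and males day 29. Mcm4 and Mcm7 stayed under 1 in all tables.

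The mean log2 CPM of the 10 genes in each rat summarises the set, and it is given with no test. From control to top dose it went from 1.4 ± 0.31 to 3.03 ± 0.42 in experiment A (SD, n = 5) and from 1.25 ± 0.21 to 2.79 ± 0.74 in females day 29. The values were 1.39 ± 0.31 and 2.37 ± 0.34 for females day 8, 1.36 ± 0.37 and 2.07 ± 0.35 for males day 8, and 1.34 ± 0.34 and 2.18 ± 1.10 for males day 29. All treated rats were above all controls in experiment A and in both female tables, and 4 of 5 were in both male tables of experiment B. Single rats at lower doses reached the top-dose range, such as replicate 2 of experiment A at 300 mkd with 2.96 and replicates 4 and 5 of females day 8 at 1000 mkd with 3.36 and 3.30.

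**Figure D3:**
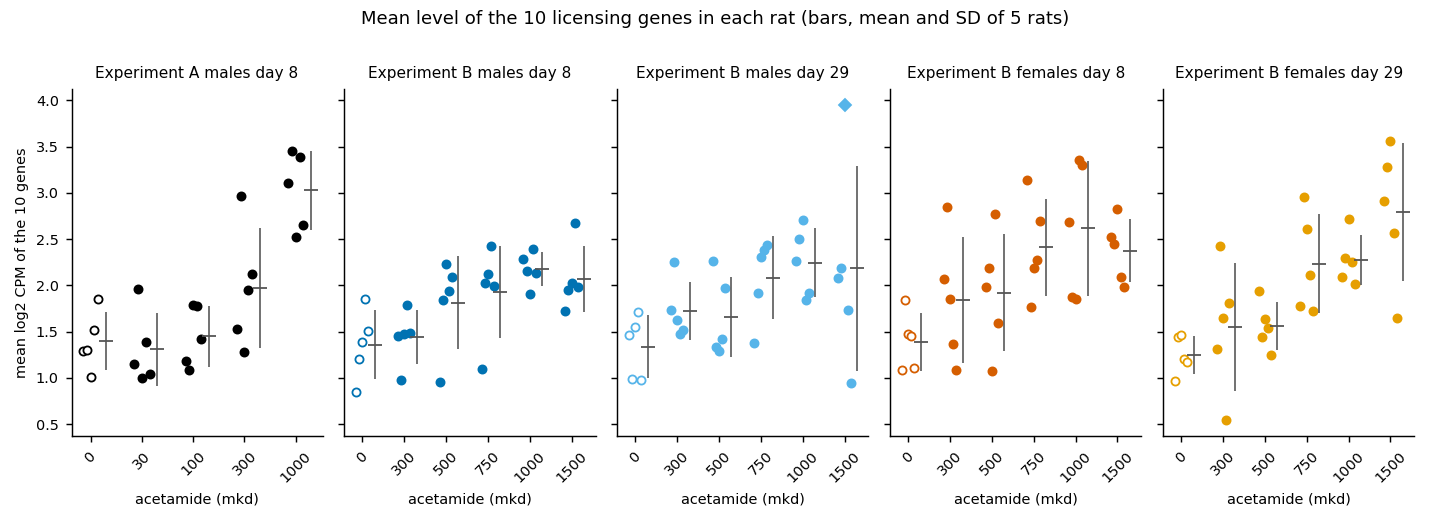
Mean log2 CPM of the 10 genes (vertical axis) in each rat by dose in mkd, 1 panel per table, with the group mean and SD beside the points; control rats are open. The diamond is replicate 3 of males day 29 at 1500 mkd, at 3.95, while its group mates lay between 0.946 and 2.19.

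Responses at the top dose were compared between sexes and durations in a joint fit of experiment B, in which 11800 genes were tested. None of the 10 genes differed between sexes on day 8 (0% of tested genes did) or on day 29 (0.466%), or between durations in males (0%) or females (0.0169%), by edgeR or DESeq2 at an adjusted p of 0.05. The number with an unadjusted p under 0.05 was 0, 0, 1 and 1 in edgeR, against 510, 2033, 547 and 928 of all tested genes. On day 29 the female minus male difference in log2 response was 1.14 (SE 0.73, adjusted p = 0.421) for Mcm5 and -1.23 (SE 0.68, adjusted p = 0.336) for Cdc7. Without replicate 3 of the 1500 mkd males, Mcm5 (2.69, adjusted p = 0.014) and Mcm3 (1.94, adjusted p = 0.0253) had the larger response in females and passed. The share of all genes that passed in this refit was not computed. Without that rat the difference for Cdc7 turned to 0.48 (adjusted p = 0.649). The largest duration difference in males was that of Cdc7, at 2.26 (SE 0.73, adjusted p = 0.994).

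The 1000 mkd groups of males on day 8 allow the experiments to be compared, with 11579 genes tested. Cdc6 had the larger response in experiment A, by 2.07 on the log2 scale (SE 0.62, adjusted p = 0.0318), and it was 1 of the 10 genes, where 7.48% of tested genes differed. In experiment B its 1000 mkd rats had 0.352, 0.657, 0.360, 0.555 and 0.781 CPM against 0.335, 0.400, 0.367, 0.747 and 0.584 CPM in the controls, in full overlap, whereas all treated rats of experiment A were above their controls. The call was lost when replicate 1, 3, 4 or 5 was left out of every group, with differences from 1.76 to 2.57. Strain, supplier, age range and conduct of the experiments differ together, so their shares in this difference cannot be told apart.

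Of the 10 genes, Mcm10 was the one called between the sexes in untreated liver. In vehicle controls, it was lower in females than in males on day 8 by a log2 difference of -1.53 (SE 0.42, adjusted p = 0.00716) and on day 29 by -1.89 (SE 0.43, adjusted p = 0.000541). This comparison was added after the data were seen. Each of the other 9 had an adjusted p over 0.2 on both days. Of all tested genes 11.5% and 18.9% differed, so 1 of the 10 is no more than the share of all genes. On day 8 the control females had 1.39, 7.51, 8.12, 8.28 and 3.03 CPM and the control males 5.02, 8.65, 29.2, 14.4 and 15.3 CPM. On day 29 the groups did not overlap, with 2.80, 3.31, 4.27, 8.36 and 4.24 CPM in females and 9.22, 11.2, 23.2, 24.9 and 9.24 CPM in males. The day 8 call was lost when replicate 3 (adjusted p = 0.0733) or replicate 5 (adjusted p = 0.0708) was left out of every group.

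Female means of Mcm10 were below male means at each dose of both days, such as 5.63 against 14.7 CPM at 750 mkd on day 29. Mcm10 also had the lowest correlation with the rest of the set. Across all rats, with each table centred on its mean, its log2 CPM had a correlation of 0.42 with the mean of the other 9 genes. The values of the others were 0.96 for Mcm5 and Mcm3, 0.94 for Mcm6, 0.90 for Mcm2, 0.83 for Cdt1, 0.81 for Mcm4, 0.80 for Cdc6, 0.76 for Mcm7 and 0.74 for Cdc7. These are descriptions over rats that share tables, doses and scaling.

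**Figure D4:**
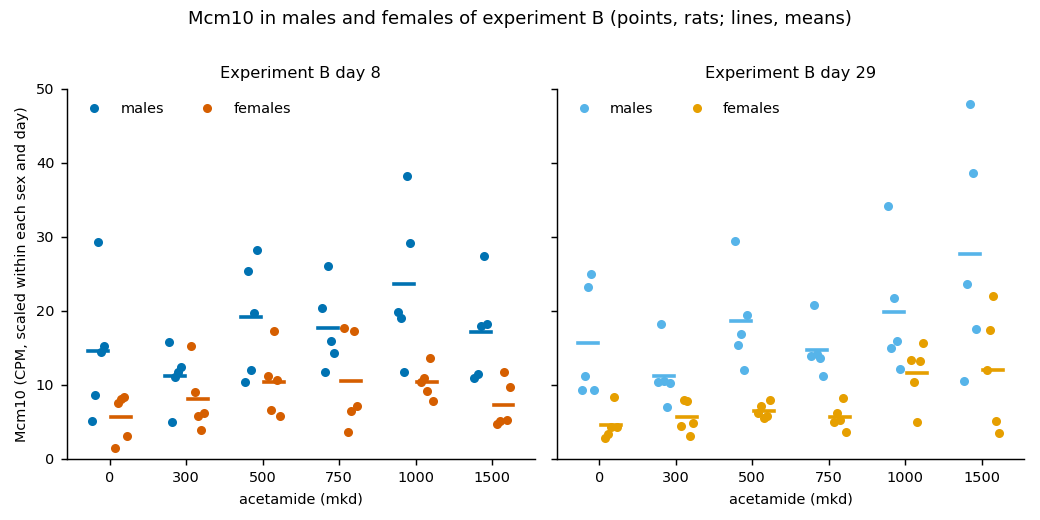
Mcm10 in CPM (vertical axis, from 0) by dose in mkd in males and females of experiment B, day 8 at left and day 29 at right, with 1 point per rat and lines at the group means. Each sex and day is scaled on its own; the female mean lies below the male mean at all 6 doses of both days.

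Among 11056 other genes ranked by their correlation with the 10-gene mean over all rats, E2f1, which encodes an activating E2F factor, came first at 0.91 (Spearman rho 0.92). Next were Pold1, a subunit of DNA polymerase delta (0.90), Chaf1b, a subunit of the histone chaperone CAF-1 (0.89), and Kntc1, a checkpoint gene of the kinetochore (0.89). Cdc45, which joins the ring to form the active helicase (0.88), Tcf19 (0.88), Tonsl, which acts at damaged replication forks (0.87), and Uhrf1, which keeps DNA methylation after replication (0.86), completed the first 8. With group means removed and all groups pooled, the values ran from 0.76 to 0.85. They include replicate 3 of males day 29 at 1500 mkd. No value was computed without that rat or within a single group.

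The rest of the pathway was read at the top dose of each table, where 14% of tested genes were called higher in experiment A and 9.55% in females day 29. The shares were 3.16% for males day 29, 0.522% for females day 8 and 0.142% for males day 8. In males day 29 these lists were also read without replicate 3 of the 1500 mkd group, an alternative added after the data were seen, in which 1.12% of tested genes were called higher. Of the 6 origin recognition genes, Orc1 and Orc6 were called higher in experiment A and in females day 29, and none in the other tables. Orc1, the subunit whose level changes through the cell cycle, had 0.265 ± 0.145 CPM in the controls of experiment A and 1.06 ± 0.370 CPM at 1000 mkd (SD, n = 5; log2 fold change 1.96, adjusted p = 0.00131). The median of the 6 genes was 0.18 in experiment A and 0.27 in females day 29. Among the licensing regulators 1 of 6 tested genes was called higher in experiment A, 3 of 6 in males day 29, 2 of 7 in females day 29 and 0 of 7 in both day 8 tables of experiment B. Without replicate 3 the count in males day 29 was 0. Gmnn, which encodes the Cdt1 inhibitor geminin, was called in experiment A (1.89, adjusted p = 0.00106), females day 29 (1.5, adjusted p = 0.000255) and males day 29 (1.28, adjusted p = 0.04), where it was 0.42 without replicate 3 (adjusted p = 0.328). Dbf4, the partner of Cdc7, was not called in any table and was too low to be tested in experiment A and in males day 29. Mcm8, a relative of the ring subunits outside the licensing ring, was called in experiment A (0.77, adjusted p = 0.0227) and in females day 29 (1.06, adjusted p = 0.00871).

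Genes of the active helicase and its firing factors came next. Of the 12 listed genes found in the files, 11 were called higher in females day 29 and 9 in experiment A. Of the 11 tested in males day 29, 5 were called, while females day 8 had 1 call and males day 8 had 0. Recql4, a firing factor, was called in 4 tables, at log2 fold changes of 1.49 in experiment A, 1.52 in females day 29, 1.65 in males day 29 and 1.29 in females day 8. Cdc45, Donson, Gins1 and Gins3 were called in 3 tables each, and the value of Cdc45 was 1.36 in experiment A, 1.58 in females day 29 and 1.82 in males day 29. In males day 29 at 1500 mkd Cdc45 stood at 2.81 ± 3.16 CPM (SD, n = 5). Without replicate 3 none of the 5 calls remained, with Cdc45 at 0.73 (adjusted p = 0.102) and Recql4 at 0.69 (adjusted p = 0.11).

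Among 20 genes of fork elongation, 6 were higher and 1 lower in experiment A, 8 were higher in females day 29, 7 in males day 29 and none in either day 8 table of experiment B. Fen1, Pold1, Pole and Pole2, which copy DNA or process its lagging strand, were called in 3 tables each, and Pold1 was at 1.19, 1.24 and 1.23 in experiment A, females day 29 and males day 29. The gene called lower was Rpa3, a subunit of the single-strand binding protein, at -0.59 (adjusted p = 0.0324). Mki67 was called in 4 tables, all but males day 8, at 2.03 in experiment A, 2.05 in females day 8, 2.61 in females day 29 and 3.47 in males day 29, and Top2a in 3. Without replicate 3 the value of Mki67 in males day 29 was 0.90 (adjusted p = 0.104), that of Top2a was 0.69 (adjusted p = 0.298) and that of Pold1 was 0.45 (adjusted p = 0.183). Of the 20 elongation genes Pole2 was then the one called higher (1.17, adjusted p = 0.0483), and Rpa1 was called lower at -0.62 (adjusted p = 0.0423).

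Markers of other cells moved in the tables with most calls, to be read against the same shares of all genes. In experiment A 6 of 7 T and NK cell markers, 4 of 7 macrophage markers and 3 of 4 endothelial markers were called higher at 1000 mkd, and 3 of 8 hepatocyte markers lower. Summed T and NK cell markers ran from 4.57 to 5.35 CPM in the controls and from 6.46 to 18.2 CPM in the treated rats, macrophage markers from 330 to 972 and from 773 to 1431 CPM, and hepatocyte markers from 214055 to 303688 and from 62123 to 205733 CPM. In females day 29, 1 of 5 tested T and NK cell markers, 3 of 7 macrophage and 2 of 4 endothelial markers were higher, while 2 of 8 hepatocyte markers were lower and 1 higher. Their hepatocyte markers summed to between 162857 and 339954 CPM in the controls and to between 73625 and 167120 CPM in the treated rats. B cell, neutrophil, cholangiocyte and stellate markers were called higher for at most 1 gene per list in any table, and 2 of 5 tested erythroid markers were lower in experiment A, 3 of 5 in females day 29, where 1 was higher. Both tested neutrophil markers were lower in experiment A. In males day 29, where no marker list had a call, hepatocyte markers summed to between 162165 and 204169 CPM in the controls and to between 80533 and 185586 CPM at 1500 mkd. The part of these cells in the values of the 10 genes was not tested.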

How the data were processed

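Liver RNA of 29 groups of 5 rats was sequenced by the authors as 75 bp single-end reads from stranded mRNA libraries. Per the study's methods and the submitters' processing notes, reads were trimmed with Trimmomatic, aligned to rn6 with Bowtie2 and counted per gene with HTSeq. The authors deposited raw counts per gene and rat in 5 tables, one for each sex, day and experiment. The strand setting of the counting is not given in the sources used here. Lines of reads assigned to no gene, found in the experiment B tables, held 35.5% to 67.1% of a rat's total and were left out.

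Each table was filtered with filterByExpr, scaled by TMM and tested with edgeR 4.0.16 (R 4.3.3) by its quasi-likelihood test, with Benjamini-Hochberg adjustment over all genes tested: each dose against the vehicle control, a slope on dose, and joint fits for sex, duration and experiment. The SE is the log2 fold change divided by the root of its F statistic. The fits were tested on simulated data. DESeq2 1.42.0 and other settings served as alternatives. Mean log2 CPM used a prior count of 2. Counts per rat ran from 15449716 to 39986531, and each group holds 5 rats, which the labels give as separate animals. Replicate numbers were not treated as pairs, and no table had a correlation over 0.1 in every same-numbered pair. Differently numbered rats were not compared, so whether same-numbered rats share more was not tested.

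The 10 genes and the pathway and marker lists were chosen with earlier results of these data known. Genes named are the 10 members, pathway genes called in at least 3 tables with Orc1, Gmnn, Dbf4, Cdc45 and Mki67, and the 8 genes most like the member mean. Orc6, Mcm8, Rpa3 and Rpa1 were named after their values were seen.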

Additional observations from a re-analysis of the deposited data

Results flagged for a closer look

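In each group of 5 rats, the gap between the most extreme rat and its neighbour was set against the whole range of the group. Over all groups, 27 of 290 gene and group combinations (9.31%) passed Dixon's 95% limit. Over the control and top-dose groups of the 5 tables, 16 of 100 did. Chance alone flags about 1 in 20 if values are normally distributed, which was not tested for these CPM. The genes are read in the same rats, so these are not 16 separate events.

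Replicate 3 of males day 29 at 1500 mkd accounts for 7 of them, as the highest rat for Mcm3 (21.5 CPM), Mcm4 (18.0 CPM), Mcm5 (24.9 CPM), Mcm6 (27.8 CPM), Mcm7 (46.6 CPM), Cdc6 (2.86 CPM) and Cdc7 (3.91 CPM). Replicate 4 of males day 8 at 1500 mkd was high for Mcm2 (13.4 CPM) and Mcm4 (11.1 CPM). Replicate 5 of females day 29 at 1500 mkd was low for Mcm4 (6.72 CPM).

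The others lie in vehicle controls. Replicate 4 of males day 8 was high for Mcm6 (7.10 CPM) and Cdt1 (2.10 CPM). Among females day 29, replicate 1 was low for Mcm3 (1.28 CPM), replicate 2 high for Cdc6 (0.819 CPM), replicate 3 high for Cdc7 (0.461 CPM) and replicate 4 high for Mcm10 (8.36 CPM).

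The response of Cdc6 to 1000 mkd differed between the experiments in males on day 8, by 2.07 on the log2 scale (edgeR joint fit, adjusted p = 0.0318). Cdc6 had between 4 and 19 counts in the control rats of experiment A and between 9 and 16 in those of experiment B.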

How the results depend on the processing

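Counts below are of the 10 genes, without the share of all genes called under each setting. Experiment A at 1000 mkd and females day 29 at 1500 mkd kept at least 6 calls under every setting run, with 7 to 9 and 6 to 10 when replicates were left out. The other tables changed more, and the cause was not tested. For males day 29 at 1500 mkd the count was 2 with the settings of the report, 1 with no filter on low counts, 1 with at least 10 counts in every rat, 0 when the other doses were left out of the fit, 5 at a fold change of 1.4 and adjusted p of 0.1, 5 with DESeq2, and 1 without replicate 3 of that group. Without that rat the counts were 3 at 1000 mkd and 1 at 750 mkd, the trend was called for 1 gene in place of 9, and 2 genes differed between sexes on day 29. Without the whole top dose group, the trend in these males was lost for Mcm7 and Mcm10 only. At 1000 mkd in these males the count of 0 became 3 without the other doses, 2 at the relaxed criteria and 1 with DESeq2.

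In females day 8 the count at 750 mkd went from 0 to 3 without the other doses and to 2 with DESeq2, that at 1000 mkd from 3 to 5 with DESeq2, and that at 1500 mkd from 0 to 2 without the other doses, at the relaxed criteria and with DESeq2. Their trend went from 3 to 5 without the top dose, on log10(dose + 100) and with DESeq2. In females day 29 the count at 750 mkd went from 0 to 3 at the relaxed criteria and with DESeq2, and the trend from 10 to 5 without the top dose. In males day 8 the count at 1500 mkd went from 0 to 1 at the relaxed criteria and to 2 with DESeq2, and the trend from 4 to 0 without the top dose and to 2 on log10(dose + 100). The trend in experiment A went from 9 to 0 without the top dose. With at least 10 counts in every rat Cdc6 was no longer tested, which left 0 experiment differences.

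Library totals without scaling factors, added after seeing the data, gave 5 calls in males day 29 at 1500 mkd, 4 and 2 in females day 8 at 750 and 1500 mkd, 2 in females day 29 at 750 mkd, and 6 experiment differences. They moved the median log2 fold change of all genes at the top dose from 0.00093 to 0.58 in experiment A, from -0.0018 to 0.42 in females day 29, from 0.07 to 0.22 in males day 29, from -0.0038 to 0.22 in females day 8 and from -0.0039 to 0.13 in males day 8. The median of the 10 genes was then 2.89, 2.09, 1.59, 1.19 and 0.83, so it exceeded that of all genes in each table under either scaling.

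A fit with the replicate block gave 1 call in males day 29 at 1500 mkd, 1 in females day 8 at 1000 mkd and 4 trends in males day 29, and moved no other count by over 1.5 times. Of the same-numbered pairs, 1 of 4 in experiment A and 3 or 4 of 5 in the tables of experiment B correlated at over 0.1. Whether that exceeds differently numbered pairs was not tested.

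Leaving out replicates gave 0 to 5 calls in males day 29 at 1500 mkd, 0 to 1 at 1000 mkd, 0 to 5 and 0 to 1 in females day 8 at 1000 and 1500 mkd, and 0 to 3 in females day 29 at 1000 mkd. Trends were called for 9 genes in experiment A throughout, for 0 to 3 in males day 8, 0 to 9 in males day 29, 0 to 2 in females day 8 and 9 to 10 in females day 29. The vehicle sex difference was called for 0 to 1 gene on day 8 and for 1 gene on day 29, and the experiment difference for 0 to 1.

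Directions turned for values that had passed no test. The sex difference of Mcm7 on day 29 (-0.05) became 0.039 at library totals, 0.33 without the 1500 mkd male of replicate 3, and ran from -0.26 to 0.28 when replicates were left out (0.06 without replicate 2). That of Cdc7 (-1.23) became 0.48 without that male and ran from -1.68 to 0.45. With replicates left out, the sex difference of Mcm4 ran from -0.090 to 0.62 and that of Cdt1 from -0.090 to 1.16. Mcm10 in males day 29 at 1000 mkd (0.34) became -0.0024 without treated replicate 1 and ran from -0.15 to 0.60 over the leave-outs, and the slope of Mcm4 there (0.41) ran from -0.012 to 0.55. In the promoters, the 250 bases before the start alone held an E2F-type motif in 4 of 8 (2.15% of all promoters), an E2F core in 5 (6.36%) and the CHR element in 1 (16.2%).

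Depth limits Cdc6 and Cdc7 most, with 3 to 25 and 0 to 11 counts per control rat.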
